A study of Homo sapiens with 6 samples.

Results

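The genes described here are the DNA repair and damage checkpoint genes of RKO cells, an established human colorectal carcinoma line. They were taken from the deposited table by gene name, as the Fanconi anaemia genes, the BRCA and other recombination genes, the RecQ helicases and their partners, the checkpoint kinases and the mismatch, end joining, excision and PARP genes. By that rule 36 of the 3511 genes in the table were members. The labels give 3 samples in control medium (10% fetal bovine serum and 4.5 g/L glucose) and 3 in fasting medium (1% fetal bovine serum and 1 g/L glucose), all with wild-type genotype, and the series' design text gives 48 h of treatment. That text also names 5-FU and oxaliplatin, which were not analysed here. All values come from 1 cell line. The labels do not tell whether samples of one medium were grown separately, and the p-values then reflect only how far these samples spread, in part perhaps for technical reasons.

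The Fanconi pathway unhooks crosslinks that join both strands of DNA. A core complex of Fanconi proteins marks the FANCD2 and FANCI pair with ubiquitin, nucleases then cut at the crosslink, and the BRCA and other recombination proteins repair the resulting break by copying the sister strand. ATR and CHEK1 hold the cell cycle while replication forks are stalled, and many of these genes are transcribed mainly in cells that pass through S phase.

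The table was selected on the outcome, which limits what can be said of its members. It lists only genes that the authors called (highest adjusted p 0.04999), 11.8% of the 29845 genes they tested, and the groups overlapped in no listed gene (100% were apart). Of 80 protein-coding genes in the GENCODE annotation whose names meet the rule, 36 (45.0%) were listed, against 15.4% of all protein-coding genes. Both shares count annotated genes whether or not RKO cells express them, so they do not compare expressed genes. The other 44 were not listed, and nothing is said of their levels. Reads in listed genes numbered 4017618 to 5602177 per library. Fasting replicate 3 stood apart from the other fasting libraries, with a chi-square per gene of 58.5 and 57.9 against them (1 for sampling noise alone), where the other pairs within a group had 1.90 to 6.70. Counts and medians over the members, and the log2 fold changes of the members that library moved most, are given with and without it. Of 12 colorectal epithelium markers only KRT18 was listed (it rose by 1.72 log2 units), and of 12 fibroblast, endothelial and immune markers none, so the table cannot check the labelled cell type.

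In fasting medium 34 of the 36 listed members fell and none rose (limma, adjusted p under 0.05). Among all genes the authors tested 5.25% fell by this rule, and among the listed genes 44.6% fell, 49.7% rose and 94.3% passed in either direction. All 36 members lay lower in fasting medium. Of the 1747 listed genes that did so, 1567 passed, so the count of 34 does not set the members apart. The median log2 fold change of the members, fasting minus control, was -1.11 with a range of -1.75 to -0.63, beside a median of -0.92 over all listed genes that lay lower in fasting medium. At least 2-fold falls numbered 22, a size reached by 19.8% of listed genes. Members that did not pass were ATR and PRKDC. Without fasting replicate 3 all 36 members fell (49.8% of listed genes did), with a median of -0.99. That fit called all 1747 listed genes that lay lower in fasting medium, so falling in it does not set the members apart. In it 17 members lay at least 2-fold lower, and the share of listed genes that did so was not computed. From bulk RNA, fewer cells in S phase and less of each transcript per cell cannot be told apart.

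**Figure D1:**
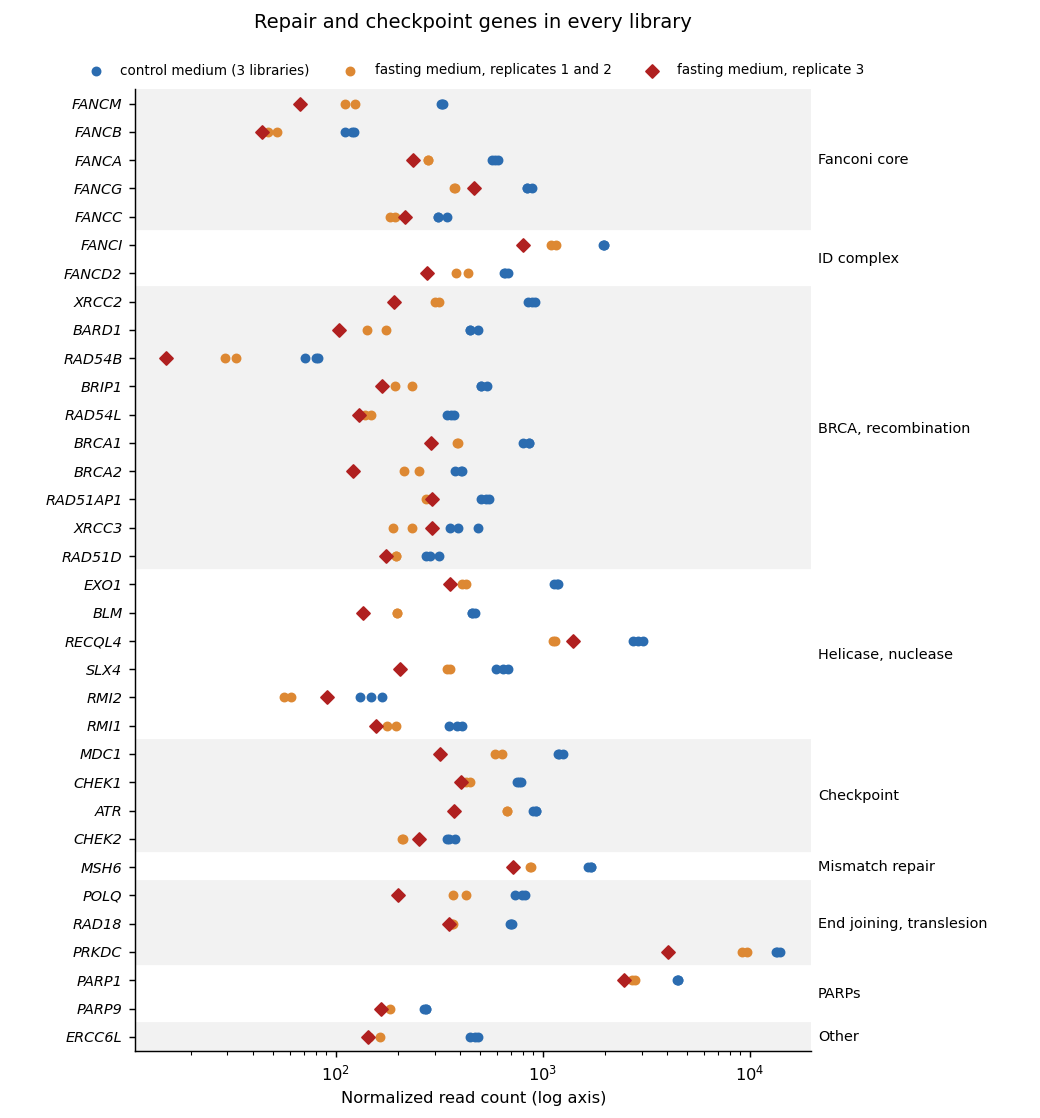
Normalized read count (log axis) of 34 listed members in each library, grouped by role. Blue points are the 3 control libraries, orange points fasting replicates 1 and 2, and red diamonds fasting replicate 3. In all 34 rows the blue points lie to the right of every fasting point, and the groups were apart in 100% of listed genes. The diamond lies left of both orange points in 27 rows and right of both in 7.

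Genes of the cell cycle and of cell stress moved beside the repair genes. All 24 listed of 28 mitosis genes fell, and their summed level went from between 37464 and 37859 normalized counts in the control libraries to between 10565 and 12099 in fasting medium. Among DNA replication genes 27 of 28 listed fell, of 32 in the list. All 10 listed of 12 stress and RNA quality genes rose, from a sum between 30044 and 31255 to one between 121077 and 143182. Of all listed genes 44.6% fell, 49.7% rose and 94.3% passed in either direction. No listed gene of these lists was at 0 in any library. Their part in the fall of the repair genes was not tested.

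Because the members moved together, the sequence before their transcription starts was searched for letters known from cell cycle promoters. RefSeq windows (GRCh38.p14) from 250 bases before to 50 bases after a start were at hand for 29 members, 41 windows in all. The E2F site was searched as TTTCCCGC or TTTGGCGC, the CHR element as TTTGAA or TTCGAA and the CCAAT box as CCAAT, each on both strands. TTCGAA reads the same on both strands, and no motif contains another. An E2F match lay in 4 of the 41 windows (9.76%), against 2.27% of the 35116 windows of the table and 36.4% of windows of listed DNA replication genes. The CHR letters were in 12.2% of member windows, 16.35% of all windows and 78.3% of windows of listed mitosis genes. For the CCAAT box the shares were 41.5% of member windows, 34.6% of all, 63.6% for replication and 82.6% for mitosis genes. All members are protein-coding, and among the 22198 protein-coding windows the shares were 2.79% (E2F), 13.7% (CHR) and 34.7% (CCAAT box). E2F letters were found for FANCC, FANCD2, MSH6 and XRCC2. These shares were not tested, and a match is only a match of letters.

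The members shown are those whose last 150 bases before the start hold an E2F match or at least 3 CCAAT boxes. Matches are in capitals, 5′ to 3′ on the gene's strand, with ATTGG the box read on the other strand. FANCC (chr9:95317710-95317859, minus strand) holds the E2F letters, and BLM (chr15:90717196-90717345, plus strand), BRIP1 (chr17:61863529-61863678, minus strand) and XRCC3 (chr14:103715452-103715601, minus strand) hold 3 boxes each.
FANCC: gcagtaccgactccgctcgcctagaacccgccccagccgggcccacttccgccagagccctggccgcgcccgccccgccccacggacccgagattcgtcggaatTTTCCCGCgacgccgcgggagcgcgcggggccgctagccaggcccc
BLM: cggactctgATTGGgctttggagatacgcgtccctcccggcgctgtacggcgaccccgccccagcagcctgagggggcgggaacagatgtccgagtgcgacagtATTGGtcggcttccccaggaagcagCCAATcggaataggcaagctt
BRIP1: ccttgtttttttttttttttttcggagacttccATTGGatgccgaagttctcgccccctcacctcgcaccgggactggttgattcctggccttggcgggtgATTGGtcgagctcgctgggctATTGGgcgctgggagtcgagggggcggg
XRCC3: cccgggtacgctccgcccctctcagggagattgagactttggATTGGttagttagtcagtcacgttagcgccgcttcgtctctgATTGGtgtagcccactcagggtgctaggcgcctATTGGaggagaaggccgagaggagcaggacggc
Their falls differed, with log2 fold changes of -0.71 for FANCC, -1.39 for BLM and for BRIP1, and -0.79 for XRCC3.

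In the Fanconi core complex all 5 listed of 8 genes fell, with a median of -1.15 (-1.18 without fasting replicate 3). FANCM, the translocase that anchors the complex on DNA, had 323, 328 and 326 normalized counts in the control libraries and 110.4, 124 and 67.4 in fasting medium, in order of replicate number here and in what follows. Fasting replicate 3 was the lowest library. FANCM fell by 1.73 ± 0.22 log2 units (SE, adjusted p = 0.00137), the steepest change of the complex, and the value was -1.47 without that library. FANCB, a scaffold subunit on the X chromosome, went from 111, 122 and 119 to 47.0, 52.3 and 44.0, and fell by 1.28 ± 0.14 (adjusted p = 0.000641). The fasting libraries lay close together here. FANCA (-1.15) and FANCG (-1.07), its binding partner, had smaller log2 fold changes that also passed. FANCC, with values of 311, 312 and 346 against 183, 192 and 216, had the smallest (-0.71 ± 0.11, adjusted p = 0.00390). FANCE, FANCF and FANCL, which encode the remaining subunits matched by the rule, were not listed.

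Both genes of the ID complex, the clamp that the core complex ubiquitinates, were listed and fell. FANCI had 1946, 1971 and 1973 normalized counts in control medium and 1099, 1156 and 804 in fasting medium, a log2 fold change of -0.96 ± 0.14 log2 units (adjusted p = 0.00251). FANCD2 had 681, 652 and 656 against 382, 433 and 276, a log2 fold change of -0.89 ± 0.16 (adjusted p = 0.00786). In both genes fasting replicate 3 was lowest, and without it the log2 fold changes were -0.80 for FANCI and -0.70 for FANCD2. Other Fanconi genes sit with the recombination and nuclease genes that follow.

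The BRCA and other recombination genes included the steepest falls of all members. All 11 listed of 16 fell, with a median of -1.37 (-1.27 without fasting replicate 3). XRCC2, which helps form the recombination filament on single-stranded DNA, went from 886, 853 and 914 to 315, 301 and 191 normalized counts. BARD1, the obligate partner of BRCA1 in its ubiquitin ligase, went from 446, 485 and 443 to 141, 175 and 103. Control values of XRCC2 were 3.36-fold those in fasting medium (log2 fold change -1.75 ± 0.19, adjusted p = 0.000637), and those of BARD1 3.34-fold (-1.74 ± 0.19, adjusted p = 0.000652). In both genes fasting replicate 3 was the lowest library, and without it the log2 fold changes were -1.52 and -1.54.

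BRCA1, a ubiquitin ligase subunit that promotes recombination, had 807, 855 and 860 normalized counts against 383, 389 and 290.1, a log2 fold change of -1.26 ± 0.13 (adjusted p = 0.000567), or -1.12 without fasting replicate 3. BRCA2, a mediator of filament assembly, had 407, 404 and 376 against 213, 253 and 121. Its fasting values spread about as widely as the distance of the nearest one from the controls, and the log2 fold change of -1.08 ± 0.25 (adjusted p = 0.0265) was -0.76 without fasting replicate 3 (adjusted p = 2.15e-05). The fit without fasting replicate 3 passed 3509 of the 3511 listed genes, so passing it says little of BRCA2. BRCA2 no longer passed when any 1 control library or fasting replicate 1 was left out.

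The other recombination genes had log2 fold changes of -1.62 to -0.63. RAD54B, a motor protein of recombination, was the least abundant member, with 81, 115 and 98 reads in control and 26, 28 and 11 reads in fasting libraries, or 79.9, 81.7 and 71.2 against 33.0, 29.3 and 15.1 normalized counts. Its log2 fold change of -1.62 ± 0.28 (adjusted p = 0.00632) was -1.29 without fasting replicate 3. BRIP1, the helicase bound to BRCA1, fell by 1.39 log2 units. RAD54L, a motor protein like RAD54B, had a log2 fold change of -1.37 and RAD51AP1, a factor that stimulates strand pairing, of -0.89, and both passed. XRCC3 had 356, 388 and 484 normalized counts against 232, 189 and 292, so its groups came within a short distance of each other. The log2 fold change of -0.79 ± 0.18 (adjusted p = 0.0264) no longer passed when control replicate 1, 2 or 3 or fasting replicate 1 or 2 was left out. Without fasting replicate 3 it was -0.95. RAD51D had the smallest log2 fold change of all members, -0.63 ± 0.11 (adjusted p = 0.00708), and it did not pass without control replicate 1. PALB2, RAD51B, RAD51C and RAD52 were among the 5 genes of this role that were not listed.

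Reads of some members may belong to neighbours. In the GENCODE annotation 59.1% of the exon bases of RAD54B lie in exons of FSBP on the same strand. For XRCC3, 76.7% lie opposite exons of KLC1, and for RAD54L 25.1% opposite LRRC41. FANCA, ATR and MSH6 share between 16.2% and 23.6% of their exon bases with genes on the opposite strand, and RAD51D 8.87% on the same strand. The libraries were strand-specific, so overlap on opposite strands matters only if the counting ignored strand, and that setting is not given. The rule by which shared reads were counted is unknown, so the division of reads in these 7 genes is uncertain.

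Helicases and nucleases that process recombination intermediates fell in all 6 listed of 9 genes (median -1.18, and -1.27 without fasting replicate 3). EXO1, the nuclease that resects broken ends, had 1184, 1166 and 1136 normalized counts in control medium and 424, 406 and 356 in fasting medium. Its log2 fold change of -1.56 ± 0.10 had the smallest adjusted p of all members (5.90e-05), and the fasting libraries lay close together. BLM, the helicase that dissolves double Holliday junctions, had 468, 458 and 454 against 198, 198 and 136, a log2 fold change of -1.39 ± 0.16 (adjusted p = 0.000852), or -1.21 without fasting replicate 3. RMI1 and RMI2, its partners in the dissolvasome, fell by 1.11 each.

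RMI2 had the highest value of the fasting libraries in replicate 3, with 60.9, 56.5 and 90.8 against 148, 167 and 132 in control medium, and its log2 fold change was -1.32 without that library. RECQL4, a helicase needed for replication initiation, fell by 1.24 from 2737, 2881 and 3047.5 to 1126, 1151 and 1404. SLX4, the scaffold of the crosslink nucleases, had 646, 592 and 680 against 357, 343 and 204. Its log2 fold change of -1.12 ± 0.21 (adjusted p = 0.00880) was -0.87 without fasting replicate 3, and it did not pass without control replicate 3. RECQL, RECQL5 and WRN were not listed.

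Of 12 damage sensing and checkpoint genes only 4 were listed, and 3 of them fell. MDC1, which binds phosphorylated H2AX at breaks, had 1252, 1199.9 and 1188 normalized counts in control medium and 635, 591 and 320.4 in fasting medium. Its log2 fold change of -1.30 ± 0.24 (adjusted p = 0.00826) was -0.98 without fasting replicate 3, which lay far below the other fasting libraries. CHEK1, the kinase that ATR activates at stalled forks, had 771, 748 and 788 against 443, 427 and 402. The fasting libraries agreed closely, and CHEK1 fell by 0.86 ± 0.09 (adjusted p = 0.000520). CHEK2, the kinase downstream of ATM, fell by 0.67 ± 0.11 (adjusted p = 0.00572), from 376, 343 and 352 to 208, 211 and 253.

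ATR had 926, 931 and 901 normalized counts in control medium and 673, 670.5 and 373 in fasting medium. Replicate 3 lay far below the other fasting libraries. The log2 fold change over all libraries was -0.73 ± 0.22 (adjusted p = 0.0887). Leaving out fasting replicate 3 gave -0.45 (adjusted p = 2.91e-05), in a fit that 3509 of the 3511 listed genes passed. ATM, ATRIP, RAD9A, NBN, MRE11, RAD50, TP53BP1 and RIF1, the other genes of this damage sensing and checkpoint role, were not listed.

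**Figure D2:**
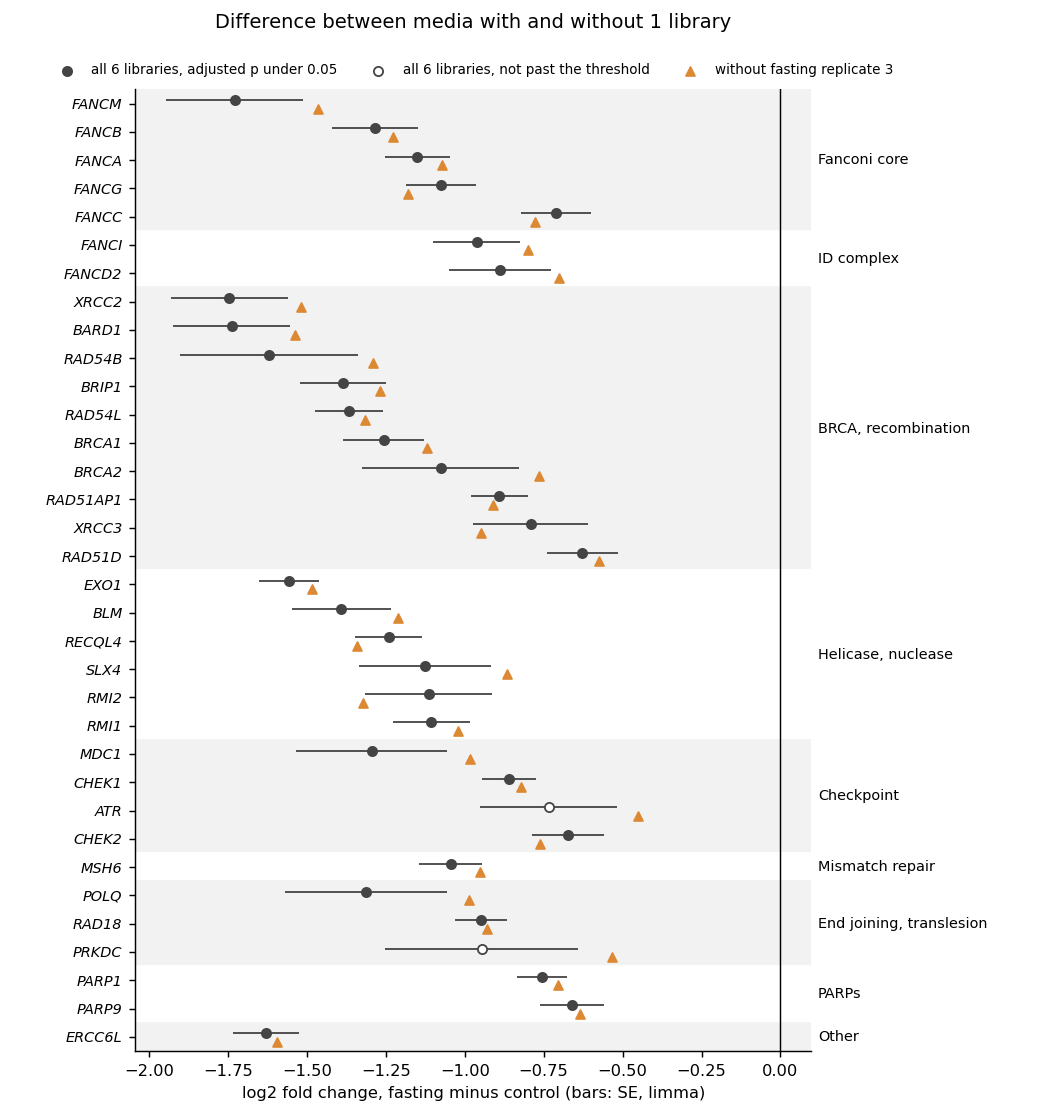
The log2 fold change of 34 members, fasting minus control, by limma with all 6 libraries (circles, bars are 1 SE, open circles did not pass the threshold) and without fasting replicate 3 (triangles). All symbols lie below 0. The open circles are ATR and PRKDC, and their triangles lie at -0.45 and -0.53.

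Among mismatch repair genes, which correct replication errors, MSH6 encodes a subunit that binds mismatches. MSH6 had 1710.1, 1714 and 1654 normalized counts in control medium and 878, 872 and 719 in fasting medium. It fell by 1.04 ± 0.10 log2 units (adjusted p = 0.000415), and without fasting replicate 3 the log2 fold change was -0.95. Of the genes grouped here by name, MLH3, MSH3, MSH4 and MSH5 were not listed.

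In end joining and translesion synthesis 2 of 3 listed genes fell, of 7. POLQ, the polymerase of microhomology-mediated end joining, had 736, 794 and 823 normalized counts against 425, 367 and 199. Its log2 fold change of -1.31 ± 0.26 (adjusted p = 0.0110) was -0.99 without fasting replicate 3, and it did not pass without control replicate 3. RAD18, the ligase that ubiquitinates PCNA to start translesion synthesis, had 696, 701 and 707 against 366, 370.3 and 353. It had the tightest replicates of this role and fell by 0.95 ± 0.08 (adjusted p = 0.000259).

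PRKDC, the catalytic subunit of the DNA-dependent protein kinase that starts end joining, was the member with the most reads. It had 13568, 13454 and 14073 normalized counts in control medium and 9744, 9175 and 4015 in fasting medium. Replicate 3 was again far below the other fasting libraries, and the log2 fold change of -0.95 ± 0.31 did not pass (adjusted p = 0.133). Without that library it was -0.53 (adjusted p = 5.79e-07), in a fit that 3509 of the 3511 listed genes passed. XRCC4, XRCC5 and XRCC6, the partners of PRKDC in end joining, and the translesion polymerase POLH were not listed.

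Excision repair and PARP genes were the role with the smallest share listed, 2 of 15. PARP1, which marks strand breaks with poly(ADP-ribose), had 4449, 4481 and 4499.6 normalized counts against 2800.4, 2694 and 2472, and fell by 0.76 ± 0.08 (adjusted p = 0.000637). PARP9, the partner of the ubiquitin ligase DTX3L, had 272, 273 and 268 against 183, 166 and 165, a log2 fold change of -0.66 ± 0.10 (adjusted p = 0.00361). In both genes the groups did not overlap, as in 100% of listed genes. Without fasting replicate 3 the log2 fold changes were -0.63 for PARP9 and -0.70 for PARP1. With each library's trend with transcript length removed, that of PARP9 was -0.18 and did not pass, while that of PARP1 was -0.63 and passed. Such removal also takes out any difference between the media that goes with length. ERCC1 to ERCC6, ERCC8, XRCC1, PARP2, PARP3, PARP4, PARP6 and PARP8 were not listed. ERCC6L matched the rule by name but encodes PICH, a translocase on ultrafine anaphase bridges. It had 468, 489 and 447 against 164, 145 and 143 and fell by 1.63 ± 0.11 (adjusted p = 7.48e-05).

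Per kilobase of the longest annotated coding transcript, PARP1 (1131 normalized counts per kilobase) and PRKDC (1014) had the highest levels in control medium, followed by RECQL4 (741) and FANCI (414). The lowest were RAD54B (25.3), RAD51D (29.2) and BRCA2 (33.0). In fasting medium the same 3 genes led, PARP1 at 671, PRKDC at 566 and RECQL4 at 315. These levels depend on the transcript taken for the length, which need not be the one expressed.

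Transcript length went with the values of fasting replicate 3. Among the 12 longest members (6769 to 13509 bases) replicate 3 lay below the mean of the other fasting libraries in every gene, by a median of -0.78 log2 units. Among the 12 shortest (1865 to 3473 bases) the median was -0.04, with 6 genes above 0. Over the 36 members the Spearman correlation of this difference with length was -0.638, and over the 2777 listed genes whose mean reached 100 normalized counts it was -0.732. Control replicate 1 against the other controls gave 0.0304 over the members. All points share the same libraries, so these values describe the libraries and not replicates.

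**Figure D3:**
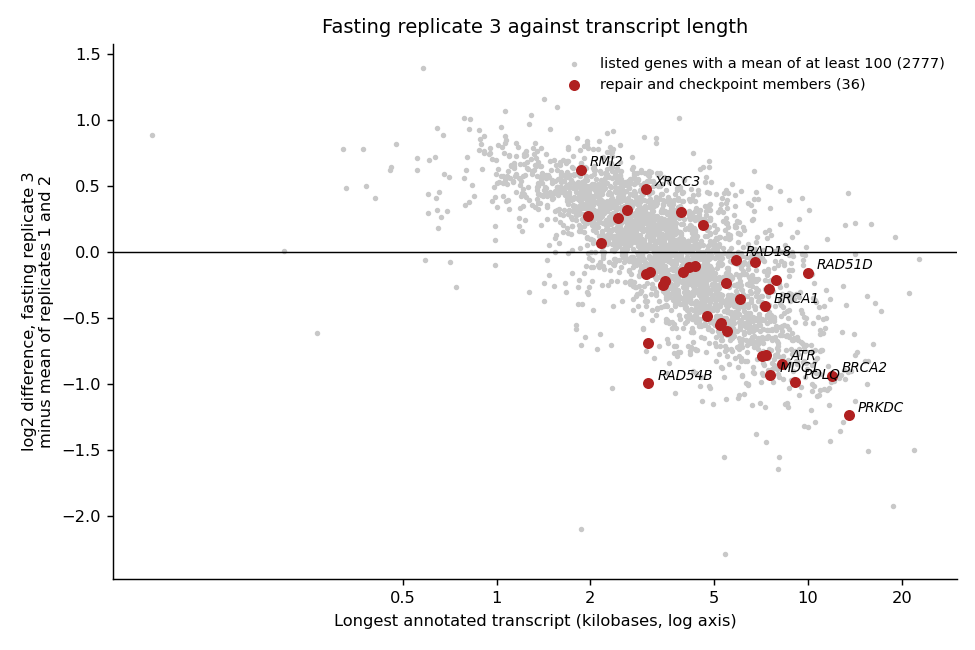
The log2 difference between fasting replicate 3 and the mean of fasting replicates 1 and 2 (vertical axis) against the length of the longest annotated coding transcript (kilobases, log axis), for the 36 members (red) and 2777 listed genes (grey). The red points run from 0.62 for RMI2 among the shortest to -1.24 for PRKDC, the longest.

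The size of the fall among long members depended on that library. The 12 longest members had a median log2 fold change of -1.06 with all libraries and -0.82 without fasting replicate 3, and the 12 shortest -1.20 and -1.26. When each library's trend with transcript length was removed, 29 members fell (40.0% of the genes with a length did), with a median of -0.84. A difference between the media that goes with length is removed with it. With RLE scaling, computed over the listed genes only, 31 fell (35.2% of listed genes did), with a median of -0.89. After removal of the length trend, members that did not pass included ATR (-0.13), PRKDC (-0.10), BRCA2 (-0.29), FANCC (-0.48), PARP9 (-0.18) and RAD51D (0.075), each with its log2 fold change in that fit.

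Further repair and checkpoint genes outside the naming rule were taken from a list of 81. Of these, 31 were listed, 28 fell, none rose and 3 did not pass (median -0.99). Of the 1747 listed genes that lay lower in fasting medium 1567 passed, so the count of 28 does not set this list apart. CLSPN, the adaptor between ATR and CHEK1, had 1203, 1130 and 1175 normalized counts in control medium and 294.5, 316 and 238 in fasting medium, a log2 fold change of -2.05 ± 0.12 (adjusted p = 5.025e-05). TONSL, which acts with MMS22L at damaged forks, fell by 1.65 log2 units, and NEIL3, a glycosylase that can unhook crosslinks, fell by 1.80. MMS22L itself fell by 1.43, and USP1, the enzyme that removes ubiquitin from the ID complex, fell by 0.94.

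The 3 that did not pass were the Fanconi-associated CENPX and UBE2T and the translesion polymerase subunit REV3L. UBE2T, the ubiquitin-conjugating enzyme of the core complex, had 494, 502 and 472 against 265, 243 and 432, with replicate 3 near the controls (log2 fold change -0.69, adjusted p = 0.0891). CENPX had 884, 930.0 and 1062 against 480, 486 and 796 (-0.74, adjusted p = 0.0523). In REV3L replicate 3 lay the other way, with 637, 703 and 654 against 459.5, 447 and 238 (-0.86, adjusted p = 0.0650). All 31 fell without fasting replicate 3, in a fit that 3509 of the 3511 listed genes passed.

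**Figure D4:**
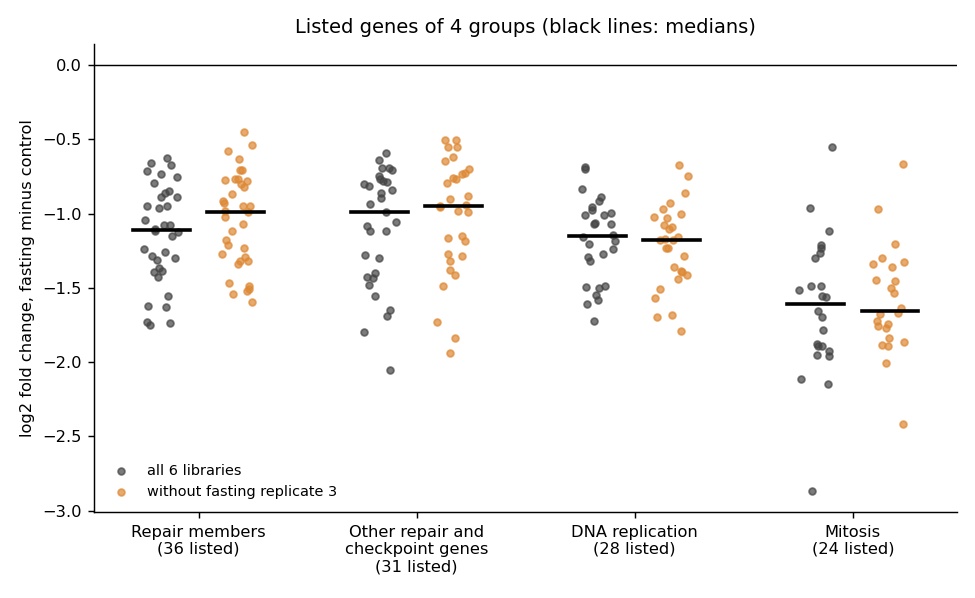
The log2 fold change, fasting minus control, of each listed gene in 4 groups, with all 6 libraries (grey) and without fasting replicate 3 (orange), and the median of each (black line). Medians with all libraries are -1.11 for the 36 repair members, -0.99 for the other repair genes, -1.15 for DNA replication and -1.61 for mitosis.

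Beside other groups the repair members had a median log2 fold change of -1.11 with all libraries, DNA replication genes -1.15 and mitosis genes -1.61. Without fasting replicate 3 the medians were -0.99 for the repair members, -1.18 for replication and -1.65 for mitosis genes, and with the length trend removed they were -0.84, -1.30 and -1.60. The differences between the groups were not tested.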

How the data were processed

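RNA from 6 RKO samples was sequenced from strand-specific libraries, per the labels' protocols. DESeq 1.10.1, HTSeq 0.6.1 and UMI-tools 1.0.0 stand in the submitters' processing notes without role or order. Aligner, genome build, annotation and strand setting: not given in the sources used here. The deposited sample columns hold normalized counts, a signal equal to reads divided by a size factor per library. The authors' log2 fold change and their deposited p-value and adjusted p-value stand in the same table, and only the adjusted p is printed. Reads were recovered as whole numbers for 100% of values in each library (tolerance 0.01 read).

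limma 3.58.1 (trend, empirical Bayes) was run on log2(normalized count + 1), keeping genes whose mean reached 1 in either medium, which all 36 members met. Folds are on that scale, which understates changes of low genes. The Benjamini-Hochberg adjustment ran over the authors' 29845 tested genes, taking p = 1 for those not listed, and tests were two-sided at 0.05. The variance moderation was estimated on genes chosen for their difference. Members and lists were chosen with earlier results of these data known. Any listed member could be named, with values in every sample for the 2 members with the largest absolute log2 fold change in each role and for members not passing or above 0. Of other lists, the 3 genes with the smallest adjusted p in each direction could be named. Sample values of further members, and MMS22L, USP1, CENPX, UBE2T and REV3L, were chosen after values were seen.

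Alternatives used edgeR 4.0.16 and DESeq2 1.42.0 on the recovered reads, other pseudocounts, filters and scalings, a replicate block, each library left out, and removal of the trend with length of the longest coding transcript (GENCODE 29). The model fits were tested on simulated data with few changed genes and no outlying library. That test therefore does not tell how the fits handle this table or fasting replicate 3. No column of per-sample values was left unmapped. Some genes, and results that need them, are not reported here, though members among them stay in the counts and medians.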

Additional observations from a re-analysis of the deposited data

How the results depend on the processing

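Over 18 alternatives no member was called higher in fasting medium, and 21 of the 36 members passed in every one. The share of all listed genes that passed in every one was not computed, so the count of 21 cannot be compared with it. The number of members that fell was 30 to 36 on leaving out 1 library (33 or fewer except without fasting replicate 3), and the number of all listed genes called was 2624 to 3509 against 3312. The members' median log2 fold change was -1.56 with edgeR and total-read scaling, -0.89 with RLE scaling and -0.84 with the length trend removed. Both scalings used only reads in listed genes, all of which the authors called, so they cannot tell which scale is right. Total-read scaling moved the median of all genes by -0.47 and left 33.6% of calls higher, against 52.7%, and RLE scaling moved it by 0.21. RAD51D reversed with the length trend removed (0.075). Its longest annotated transcript, of 9988 bases, may not be the one expressed. With RLE scaling BRCA2, XRCC3, RAD51D, ATR and PRKDC did not pass (31 fell, against 35.2% of listed genes). With edgeR and the authors' size factors 34 members and 3359 genes passed, and with DESeq2 36 and 3482. Without variance moderation, an alternative added after the data were seen, 1981 genes, 25 members and 17 other repair genes passed. MDC1, POLQ, SLX4, RAD54B, FANCI, RMI2 and FANCD2 were then lost as well as BRCA2 and XRCC3. The cause was not tested. Deviations of same-numbered libraries from their group means had correlations of 0.03, 0.03 and 0.08, too weak to tell whether the samples were paired. Control replicate 1 correlated best with fasting replicate 2, and control replicates 2 and 3 with the fasting libraries of their own number. With the replicate block 3293 genes passed, 34 members fell with a median of -1.11, and 0 rose. Depth limits RAD54B most, with 11 reads in fasting replicate 3.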

Other observations

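Partners in a complex were also compared within each library, as the log2 ratio of their normalized counts, for pairs chosen after values were seen and with no test. BARD1 lay lower relative to BRCA1 in fasting medium, at -1.44, -1.16 and -1.49 against -0.86, -0.82 and -0.96 in control replicates 1 to 3, and the groups did not overlap. The difference of the means was -0.49, or -0.42 without fasting replicate 3. With the length trend removed the log2 fold changes were -1.38 for BARD1 and -0.73 for BRCA1. For FANCD2 relative to FANCI the groups overlapped, with -1.52, -1.42 and -1.54 in fasting medium against -1.52, -1.60 and -1.59 in control medium. CHEK1 relative to ATR had one fasting library, replicate 3, above 0, with -0.60, -0.65 and 0.11 in fasting medium against -0.26, -0.32 and -0.19 in control medium. The difference of the means was -0.12, or -0.37 without that library. The longest annotated transcripts have 4153 bases for CHEK1 and 8249 for ATR. With the length trend removed the log2 fold changes were -0.70 for CHEK1 and -0.13 for ATR. RMI1 relative to BLM stood at -0.16, -0.02 and 0.20 in fasting medium against -0.21, -0.38 and -0.24 in control medium, without overlap. The difference of the means was 0.29, or 0.19 without fasting replicate 3, and the longest annotated transcripts have 3420 bases for RMI1 and 5258 for BLM. With the length trend removed the log2 fold changes of RMI1 (-1.09) and BLM (-1.06) were nearly equal. For RMI2 relative to BLM the groups overlapped, and the difference of 0.27 turned to -0.12 without fasting replicate 3.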
